A study of Mus musculus with 8 samples.

Results

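NG4 cells, a mouse embryonic stem cell line, that received small interfering RNA (siRNA) against Sox2 were compared with cells that received a non-targeting siRNA, gene by gene and by the functions and families of the changed genes. The comparison was between the 2 arrays titled siSox2 and the 2 titled siNonTarget, 4 of the series' 8 arrays, across 18193 measured genes. A gene was represented by its brightest probe set among those carrying 1 gene symbol. Both groups went through the same reverse transfection, in which cells are plated onto the siRNA mixture, and RNA was taken 48 h later. The remaining 4 arrays came from cells given siRNA against Psmd14 or Ddb1, genes of the ubiquitin-proteasome system. These 4 arrays are used below to show where siSox2 differed from another knockdown. They also enter the estimate of the spread behind each SE and adjusted p. The labels name no genotype beyond the cell line and do not say if replicates are separate cultures. The p-values therefore describe the spread among the arrays at hand, and that spread may be technical.

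Sox2 is a transcription factor that binds DNA together with Pou5f1 at composite sites made of a SOX element and an octamer, and it is one of the factors that hold embryonic stem cells in the pluripotent state. Embryonic stem cells derive from the epiblast of the blastocyst. Their naive network is known to hold back 2 alternatives open to the early embryo, the trophectoderm, which forms the placenta, and the primitive endoderm, which lays down a thick basement membrane. Sox2 is also used by neural progenitors.

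The arrays had median intensities of 27.37 to 28.83 and a median SD between replicates of 0.102 to 0.12 log2 units. A fold change had a median SE of 0.151 log2 units, and the 95% interval of a single probe set reached 0.342 to either side. Embryonic stem cell markers were above the array median for 8 of 8 genes on every array, and their summed intensity was 53619 and 58003 in siNonTarget and 49295 and 46238 in siSox2. Feeder cells would carry fibroblast markers, and the summed intensity of 11 of these was 254.56 and 246.66 in siNonTarget and 243.47 and 339.82 in siSox2. Sums over 6 blood markers (294.69 and 295.97 against 261.57 and 280.75) and 6 endothelial markers (357.67 and 317.71 against 338.47 and 276.22) were lower or in the same range in siSox2. Whether other cells or RNA quality had a part in the results was not tested. The difference between 3' and 5' probe sets of Actb, a sign of RNA quality, was 0.0962 to 0.214 on these 4 arrays. On the first principal component the siSox2 arrays lay apart from each other, at 34.95 and 59.23, with the other 6 arrays at -26.29 to -2.273. Of the genes called below, 676 of 778 (86.9%) lay farther from the control mean in siSox2 replicate 2 than in replicate 1. Many genes had more than 1 probe set, and no other probe set of a named gene passed in the opposite direction. For some named genes another probe set above the array median changed less, or in the other direction, and did not pass. Examples are Ccng2 (-0.22), Pax6 (0.05), Slc39a14 (0.11), Timp2 (0.11), Inhbb (-0.27), Esrrb (-0.12), Cacna1a (-0.29) and Efnb2 (0.06).

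The targeted transcript was only slightly lower. Sox2 read 12.23 and 12.47 on the log2 intensity scale in siNonTarget and 12.10 and 11.84 in siSox2. Both siSox2 values lay below both control values, but the difference of -0.38 (SE 0.16, adjusted p = 0.301) did not pass the threshold, an adjusted p of 0.05. A single probe set read Sox2. Its partner Pou5f1 read 13.16 and 13.30 in siNonTarget against 12.94 and 12.85 in siSox2 (-0.34, adjusted p = 0.212). Nanog, the third core factor, read 11.93 and 12.13 against 11.74 and 11.51 (-0.40, adjusted p = 0.342). Neither passed.

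Across the genome, 778 of 18193 genes passed the threshold, which is 4.28%, and this share is the background for every list below. Of these genes, 512 rose (2.81%) and 266 fell (1.46%), and 469 changed at least 2-fold (2.58%). Counted by probe set, 1320 of 45037 passed (2.93%), 847 higher (1.88%) and 473 lower (1.05%). Rises also reached farther than falls, up to 6.23 log2 units against -3.16. The median change over all genes was -0.0277, so the bulk of genes lay close to 0. Leaving out single arrays changed the number of calls strongly. With siNonTarget replicate 1 left out it was 221, with siNonTarget replicate 2 left out 104, with siSox2 replicate 1 left out 837 and with siSox2 replicate 2 left out 191, and 214, 103, 577 and 188 of the 778 genes were among them. All 778 kept their direction in each of these fits, but they had been called on these same arrays, which made that outcome likely in advance. For every group of genes below, the number still called without each of these arrays, in that order, is given at the end of its account. The lists share members, so a gene can be counted in more than 1 of them.

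**Figure D1:**
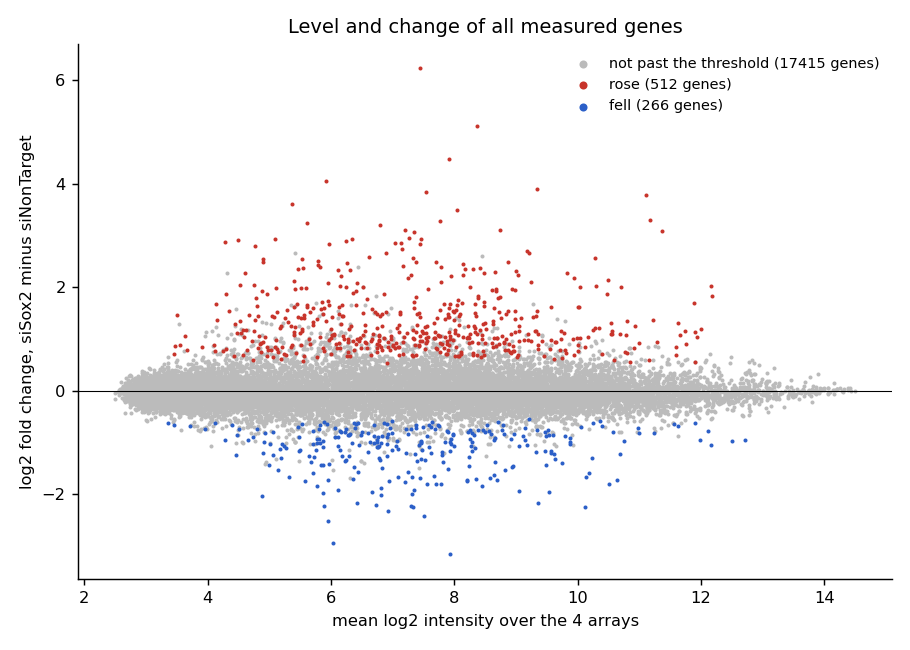
Each point is 1 of 18193 genes, with its mean log2 intensity over the 4 arrays on the horizontal axis and its log2 fold change, siSox2 minus siNonTarget, on the vertical axis. The 512 genes that rose (red) reach 6.23 log2 units and the 266 that fell (blue) reach -3.16, and calls occur over most of the intensity range.

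Trophoblast genes led the rises. Of 18 measured trophoblast transcription factors 7 rose and 0 fell, and of 31 placental and trophoblast products 15 rose and 2 fell. The 2 products that fell were Bmp4, a signal that acts on early embryonic lineages (-1.20), and Cyp11a1, the enzyme that starts steroid hormone synthesis (-1.59). Called members that return in lists below include Krt7, Krt8, Krt18, Krt19, Lcp1, Igf2, Peg10, Ascl2, Fgfr2, Fabp3 and Bmp4. In bulk RNA, fewer cells of a type and less RNA per cell cannot be told apart. Of the 24 genes called in these lists, 18, 13, 21 and 14 were called without the arrays named above, and 13 without each of them. The homeobox genes Rhox6 (2.17) and Rhox9 (2.01) were among those that depended on an array, at 1.40 and 1.27 without siNonTarget replicate 2.

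Outside the trophoblast lists, the 12 genes with the largest rises covered many functions. The largest was 3830417A13Rik, a gene of unassigned function, which read 6.36 and 5.25 in siNonTarget and 10.65 and 11.20 in siSox2, a difference of 5.12 (SE 0.38, 34.7-fold, adjusted p = 0.000395). Irx3, an Iroquois homeobox factor best known from neural and limb patterning, read 5.47 and 5.77 against 9.13 and 9.79 (3.84, SE 0.21, adjusted p = 0.00016). Pparg, a nuclear receptor of adipocytes and of the placenta, read 3.74 and 3.49 against 6.24 and 6.87 (2.94, SE 0.20, adjusted p = 0.000332). In each of these genes the siSox2 arrays stood well clear of both controls. The others were the secreted Wnt inhibitor Dkk1 (3.60), the basement membrane collagen Col4a2 (3.28), the choline-oxidising mitochondrial enzyme Chdh (3.24), the synaptotagmin Syt13 (3.20), the RNA-binding splicing factor Mbnl3 (3.10), the epidermal secreted protein Sbsn (3.07), the myelin and epithelial membrane protein Pmp22 (2.95), the matrix protein Tinagl1 (2.94) and the retrotransposon-derived Ldoc1 (2.93). Sbsn also read 6.92 to 8.96 in the other knockdowns, and its call was lost without any 1 of the 4 arrays.

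The 12 largest falls were headed by secreted and membrane proteins. Spink1, a trypsin inhibitor, read 9.34 and 9.70 in siNonTarget and 6.75 and 5.97 in siSox2 (-3.16, SE 0.35, 8.96-fold lower, adjusted p = 0.00275). Lama1, the laminin alpha chain of the early embryo's basement membranes, read 7.27 and 7.73 against 4.75 and 4.37 (-2.94, SE 0.19, adjusted p = 0.000332). Dpp4, a surface peptidase that trims peptide hormones and chemokines, read 7.29 and 7.14 against 5.24 and 4.16 (-2.52, SE 0.29, adjusted p = 0.00326). The siSox2 values of all 3 genes lay more than 1 log2 unit below both controls. Next came Nrp2, a co-receptor for semaphorins and vascular growth factors (-2.43), the Wnt deacylase Notum (-2.33), Kbtbd11 (-2.25), the cationic amino acid transporter Slc7a3 (-2.25), the neurogenic factor Neurod1 (-2.22), Accsl (-2.22), the D-type cyclin Ccnd2 (-2.21), the eye and forebrain factor Pax6 (-2.17) and Trh, the precursor of thyrotropin-releasing hormone (-2.17). The call of Pax6 was lost without siSox2 replicate 2 (-1.62, adjusted p = 0.199) and without either siNonTarget array. Neurod1 stood out against the other knockdowns too, with 8.83 to 9.75 there, above the control, and 6.29 and 6.08 in siSox2.

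**Figure D2:**
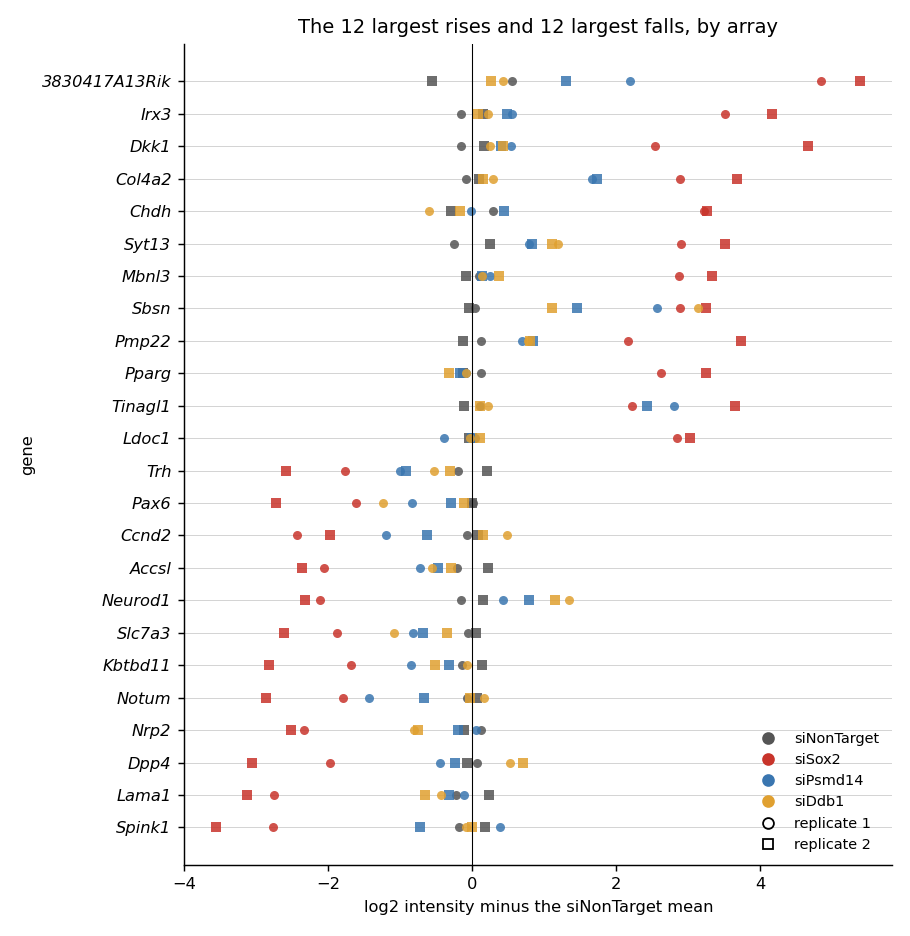
Log2 intensity minus the siNonTarget mean (horizontal axis) for the 12 largest rises and 12 largest falls outside the trophoblast lists (rows), with 1 point per array, coloured by group and shaped by replicate. The siSox2 points lie apart from both siNonTarget points in every row, while the siPsmd14 and siDdb1 points reach the siSox2 range in Sbsn and Tinagl1.

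Because Sox2 binds DNA directly, the promoters of changed genes were searched for the SOX letters CATTGTT and the octamer letters ATGCAAAT, on either strand, in windows running from 250 bases before to 50 bases after the annotated start (RefSeq sequences, GRCm38.p6). Of 14452 measured genes with a window, 2.56% held the SOX letters and 1.49% the octamer. Among the genes that fell, 10 of 199 held the SOX letters (5.03%) and 5 the octamer (2.51%). The genes that rose gave 7 of 406 (1.72%) and 5 of 406 (1.23%). These shares are descriptions, and a match is not a binding site. Of the 12 largest falls, 6 had a window and 1, that of Dpp4, held the SOX letters, and none of the 11 windows among the largest rises did. Only 2 falling genes held both sets of letters before the start, Sh3gl3, an endophilin of membrane trafficking (-0.83), and Ly6g6d, a surface protein of the Ly6 family (-0.66), which were singled out for this after their values were seen. The 250 bases before the start of these 3 genes are printed 5' to 3' on the gene's strand, with the matched letters in capitals, at chr2:62412232-62412481 (minus strand), chr7:82174546-82174795 (plus strand) and chr17:35081240-35081489 (minus strand).
Dpp4: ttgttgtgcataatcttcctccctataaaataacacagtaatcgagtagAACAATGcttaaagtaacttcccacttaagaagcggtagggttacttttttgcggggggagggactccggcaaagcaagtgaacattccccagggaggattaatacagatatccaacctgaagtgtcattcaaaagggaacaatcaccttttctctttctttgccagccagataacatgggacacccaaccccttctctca
Sh3gl3: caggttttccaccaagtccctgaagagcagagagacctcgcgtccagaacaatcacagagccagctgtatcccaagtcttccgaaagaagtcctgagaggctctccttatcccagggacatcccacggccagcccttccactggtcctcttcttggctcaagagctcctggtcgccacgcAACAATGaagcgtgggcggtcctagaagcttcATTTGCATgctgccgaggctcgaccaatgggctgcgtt
Ly6g6d: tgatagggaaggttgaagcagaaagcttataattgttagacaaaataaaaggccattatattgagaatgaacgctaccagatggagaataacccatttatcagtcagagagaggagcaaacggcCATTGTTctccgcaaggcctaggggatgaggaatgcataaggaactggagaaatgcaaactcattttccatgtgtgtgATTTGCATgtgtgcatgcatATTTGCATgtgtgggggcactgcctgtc
In Dpp4 the SOX letters began 201 bases before the start. In Sh3gl3 the SOX letters began 70 and the octamer 38 bases before it, with 25 bases between them, and in Ly6g6d the nearest pair was 71 bases apart. The composite site that Sox2 and Pou5f1 share has its 2 elements next to each other, which none of these windows showed with these letters.

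Within the pluripotency network, genes other than Sox2, Pou5f1 and Nanog fell. Of 25 naive genes 6 fell and 0 rose, with a list median of -0.48, of 24 general pluripotency genes 2 fell and 0 rose (median -0.24), and of 20 primed genes 3 fell and 1 rose (median -0.28). The naive list's median was as low in the other knockdowns, -0.48 in siPsmd14 and -0.46 in siDdb1. The naive genes with the smallest p were the lysosomal mannosidase Manba, the adhesion molecule Jam2, the nuclear receptor Nr0b1 and the homeobox factor Gbx2. Manba read 10.31 and 10.72 in siNonTarget and 8.71 and 8.38 in siSox2 (-1.97, SE 0.18, adjusted p = 0.00114), and Nr0b1, which binds and restrains Pou5f1, read 10.85 and 11.10 against 9.52 and 9.09 (-1.67, SE 0.17, adjusted p = 0.00197). For both, the 2 groups differed by over 1 log2 unit at their closest. The Akt co-activator Tcl1 (-1.40) and the orphan receptor Esrrb (-0.58) also fell, although the call of Esrrb was lost without any 1 of the 4 arrays. In the general list the uridine phosphorylase Upp1 fell (-1.80, SE 0.16, adjusted p = 0.00114) and so did the Polycomb subunit Phc1 (-0.65). Among the primed genes, Otx2, a factor of the epiblast and forebrain (-1.73), the neural cadherin Cdh2 (-1.17) and the growth factor Fgf15 (-1.74) fell, and the endoderm factor Foxa2 rose (1.60, SE 0.22). Of these 12 called genes, 6, 5, 9 and 6 were called without the 4 arrays in turn.

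Epithelial structural genes rose within narrow subsets of their families. Of 44 keratins 4 rose and 0 fell, and the 4 were the simple epithelial pairs' Krt8 (3.09), Krt18 (3.30), Krt7 (4.47) and Krt19 (2.48). All 4 are also counted above among the placental and trophoblast products. The median over the 44 was -0.0353, so the stratified and hair keratins lay near 0 as a group. Of 60 cadherins and protocadherins 2 rose and 1, Cdh2 (-1.17), fell. This share of 5% was near the 4.28% over all genes. The desmosomal cadherin Dsc2 rose from 4.71 and 4.87 to 7.41 and 7.97 (2.90, SE 0.23, adjusted p = 0.000503). The junctional cadherin Cdh5 rose from 3.17 and 3.41 to 4.74 and 5.21 (1.69, SE 0.19, adjusted p = 0.0031), and none of the other 5 endothelial markers passed. Of 43 tight and gap junction genes 5 rose and 1 fell. The connexin Gjb5 read 8.65 and 8.49 against 9.86 and 10.11 (1.42, SE 0.15, adjusted p = 0.00218), and it lay at 7.83 to 8.11 in the other knockdowns, below the control. Cingulin (Cgn, 0.71) and the claudins Cldn3 (0.84), Cldn4 (1.22) and Cldn7 (1.54) rose, and the exception was Jam2 (-1.69). Of the 13 genes called in these 3 families, 9, 7, 10 and 8 were called without the arrays in turn.

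Of the 68 lists, actin-binding and contractile genes had the highest median outside the trophoblast lists. Of 38 actin-binding and contractile genes 10 rose and 1 fell, 33 of 38 lay above 0, and the list median was 0.586 against -0.0277 over all genes. In siPsmd14 and siDdb1 it was 0.449 and 0.213. The leukocyte plastin Lcp1, an actin-bundling protein, read 4.25 and 3.53 in siNonTarget and 7.98 and 7.89 in siSox2 (4.05, SE 0.21, adjusted p = 0.00016). Its relative Pls1 of epithelial microvilli was the member that fell (-0.61). The filament-severing gelsolin, Gsn, read 6.80 and 6.37 against 8.64 and 9.31 (2.39, SE 0.25, adjusted p = 0.00221). Stress-fibre proteins followed, with Cald1 (2.01), Tagln (1.87), Tagln2 (1.35), Tpm4 (1.25), Tpm1 (1.16), the non-muscle myosin Myh9 (1.05) and the skeletal actin Acta1 (2.23). The focal adhesion protein Zyx rose by 1.27, a value that became 0.76 without siSox2 replicate 2. Several of these genes were also high in siPsmd14, where Gsn read 9.65 and 9.17, and 4 of the 10 risen members, Lcp1, Tagln2, Tpm4 and Myh9, were higher in siSox2 than in the other knockdowns by the direct test described further on.

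Annexins and S100 proteins, which bind calcium and in part membranes, rose in a minority of members. Of 26 annexins and S100 proteins 5 rose and 0 fell. Anxa3 read 7.70 and 8.05 in siNonTarget and 10.14 and 10.94 in siSox2 (2.67, SE 0.31, adjusted p = 0.00342), and Anxa2 (2.27), Anxa5 (1.95), Anxa4 (1.56) and S100a1 (0.61) rose less. Both siSox2 values of Anxa3 lay more than 2 log2 units above both controls. Over the actin and annexin lists together, 16 of 64 genes were called (25% against 4.28% over all genes), and 6, 4, 15 and 7 of the 16 without the arrays in turn.

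**Figure D3:**
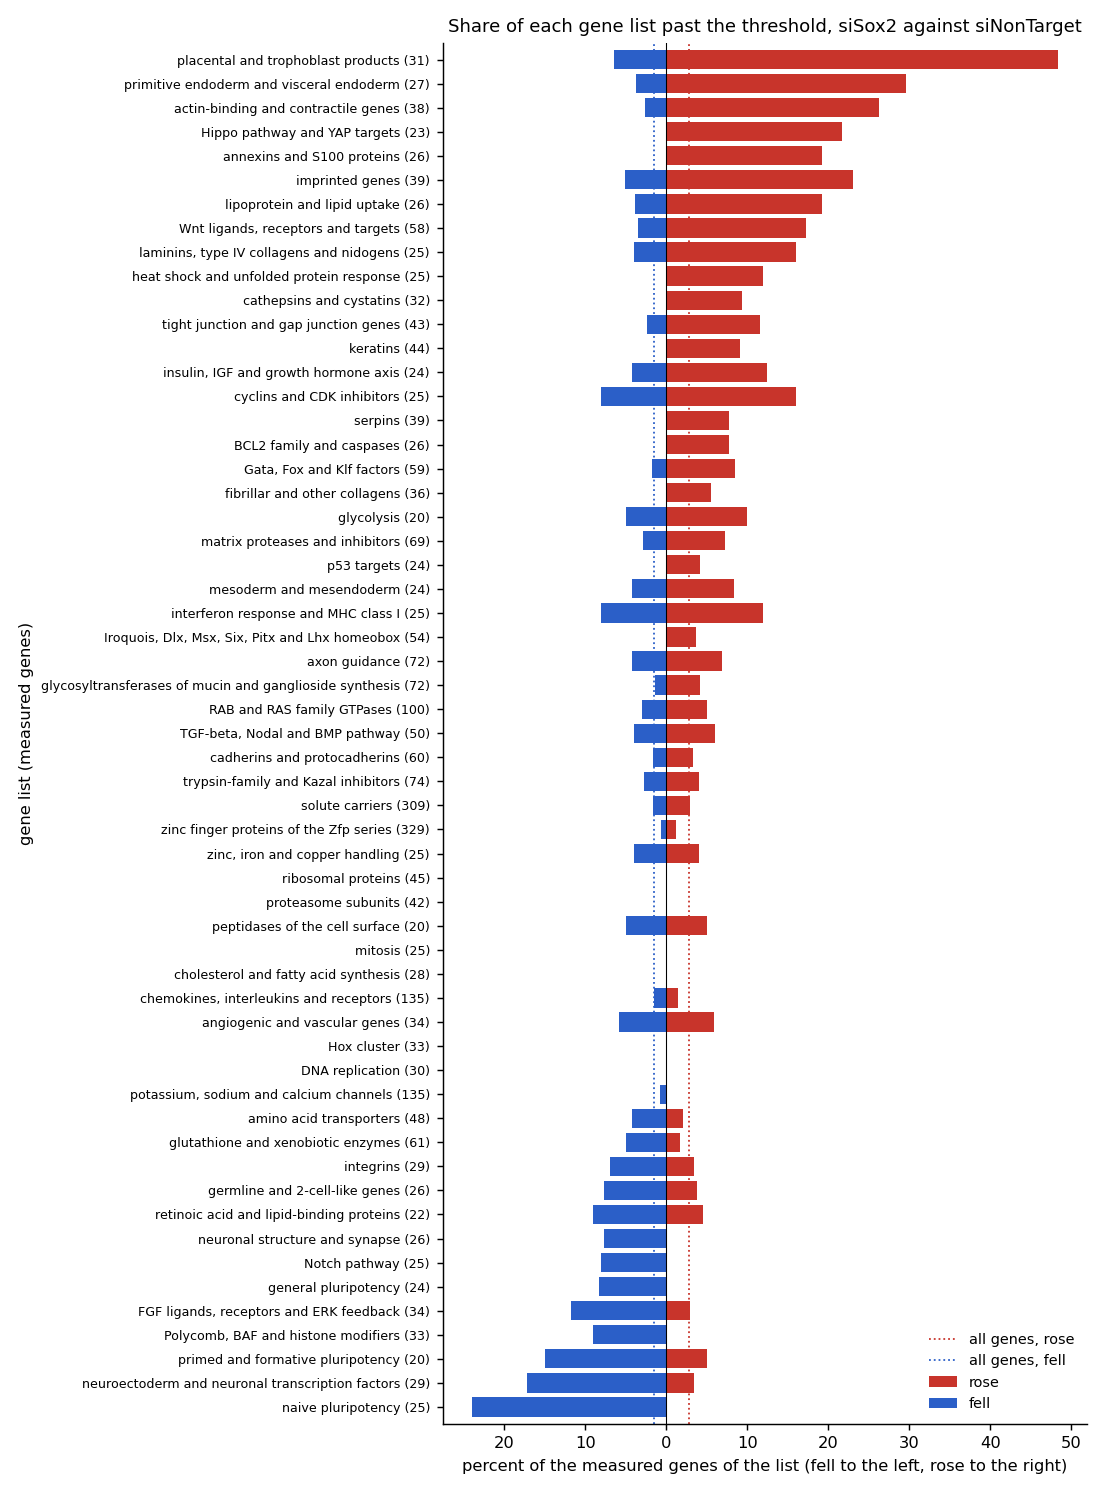
Bars give the percent of each gene list's measured members (number in parentheses) that rose (right, red) or fell (left, blue) in siSox2 against siNonTarget, for lists with at least 20 measured genes. Dotted lines mark the shares over all genes, 2.81% higher and 1.46% lower, and ribosomal, proteasome, mitosis, DNA replication, cholesterol and Hox genes have no bar.

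Basement membrane genes moved in opposite directions. The type IV collagen chains Col4a1 and Col4a2, which assemble with each other and lie head to head in the genome, rose together. Col4a2 read 6.04 and 6.22 in siNonTarget and 9.02 and 9.82 in siSox2, and Col4a1 read 7.96 and 7.72 against 10.24 and 10.83 (2.70, SE 0.20, adjusted p = 0.000395). Fras1, a matrix protein that anchors epithelia, rose from 3.45 and 3.70 to 5.20 and 5.02 (1.54, SE 0.15), and the laminin chain Lamb2 rose (0.95). Against these, Lama1 was the member that fell, so that of 25 laminin, type IV collagen and nidogen genes 4 rose and 1 fell. Type IV collagens and Lama1 are all products of the primitive endoderm, and of 27 primitive and visceral endoderm genes 8 rose and 1, Lama1, fell. This list's median was 0.232 in siSox2, 0.341 in siPsmd14 and 0.188 in siDdb1, and Col4a1 and Col4a2 also read higher in siPsmd14 than in siNonTarget, by 1.16 and 1.70. The list's other rises included the endocytic adaptor Dab2 (2.67, SE 0.26), the collagen chaperone Serpinh1 (1.72), the plasminogen activator Plat (1.43), Sparc (0.85) and the endoderm factor Gata6 (1.87, and 1.22 without siSox2 replicate 2). Of 36 fibrillar and other collagens 2 rose, Col13a1 (1.01) and Col5a2 (1.73, and 1.10 without siSox2 replicate 2). Among 29 integrins, Itga8 rose (2.08) and the alpha chain Itga9 (-1.44) and the leukocyte chain Itgb7 (-1.02) fell. Of the 10 called matrix and integrin genes, 5, 5, 8 and 5 were called without the arrays in turn, and of the 23 called genes in the germ layer, Hox, homeobox, Sox, Gata, Fox and Klf lists 13, 10, 20 and 13.

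Proteases and their inhibitors changed in small numbers within large families. The membrane-anchored serine protease Prss8 (prostasin) read 7.25 and 6.81 in siNonTarget and 9.08 and 9.44 in siSox2 (2.23, SE 0.21, adjusted p = 0.00124), and the related Tmprss4 rose (0.97). The kallikrein Klk7 rose by 1.90 and by 1.26 without siNonTarget replicate 2. Against them stood Spink1 and the serine protease Prss41 (-0.79), which made 3 rises and 2 falls among 74 trypsin-family and Kazal genes. Among 69 matrix proteases and inhibitors 5 rose and 2 fell, with the sheddases Adam8 (2.0) and Adam10 (0.69), the inhibitor Timp2 (1.25) and the urokinase receptor Plaur (1.41) higher and Adam23 (-1.30) and Mmp11 (-1.07) lower. Of 32 cathepsins and cystatins 3 rose and 0 fell, the lysosomal Ctsc (1.79, SE 0.19), Ctsl (1.13) and Ctsb (0.76). Of 39 serpins 3 rose, Serpinh1 and the granzyme-inhibitor paralogs Serpinb9g (1.47) and Serpinb9d (0.84), members of a near-identical family whose probes may cross-hybridise. Among 20 cell-surface peptidases Cpd rose (0.67) and Dpp4 fell. Of these 20 called genes 8, 2, 16 and 7 were called without the arrays in turn.

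Wnt pathway genes changed at a high rate, 12 of 58 (20.7% against 4.28% over all genes), with 10 higher and 2 lower and a median of 0.00108. Among the called genes, Dkk1 and Dkkl1 rose most and Notum fell most. Dkk1, which blocks the co-receptors of Wnt, read 3.40 and 3.73 in siNonTarget and 6.11 and 8.23 in siSox2 (3.60, SE 0.52, adjusted p = 0.00888), and its relative Dkkl1 read 4.67 and 4.43 against 7.27 and 7.50 (2.83, SE 0.21, adjusted p = 0.000395). Kremen1, the receptor through which Dkk1 acts, rose as well (1.02). Notum, which inactivates Wnt by removing its lipid, read 8.02 and 8.16 against 6.29 and 5.23 (-2.33, SE 0.33, adjusted p = 0.00866), and Porcn, which attaches that lipid, read 7.68 and 7.96 against 6.68 and 6.55 (-1.20, SE 0.14, adjusted p = 0.00372). The enzymes that add and remove the lipid therefore both fell. The ligands that rose were Wnt7b (1.13), Wnt9a (1.48) and Wnt4 (1.06, and 0.67 without siSox2 replicate 2). The secretion factor Wls (2.13) rose too, together with the receptors Fzd2 (1.31) and Fzd1 (0.74) and the receptor-removing ligase Rnf43 (0.70). Few of these calls held without single arrays, 3, 1, 9 and 4 of 12 in turn, and only Dkkl1 was called without each of them.

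Of 34 FGF and ERK genes 4 fell and 1 rose, while the list's median was -0.0277, the same as over all genes. The ERK-induced factor Etv4 read 8.16 and 7.94 in siNonTarget and 6.96 and 6.87 in siSox2 (-1.14, SE 0.13, adjusted p = 0.00306), the ligand Fgf17 read 7.93 and 8.13 against 6.56 and 6.37 (-1.57, SE 0.18, adjusted p = 0.00318), and the immediate early factor Egr1 read 9.27 and 9.48 against 7.53 and 7.54 (-1.84, SE 0.32, adjusted p = 0.0185). Fgf15 was the remaining fall, and the member that rose was Fgfr2, the receptor through which trophoblast stem cells take FGF signals (0.94, SE 0.16). In the BMP, Nodal and TGF-beta list 3 of 50 rose and 2 fell. Fstl3, which sequesters activin, rose from 6.43 and 6.33 to 7.88 and 7.84 (1.48, SE 0.18, adjusted p = 0.00407), and Bmp2 rose (0.79) where Bmp4 fell from 10.34 and 9.99 to 9.08 and 8.86 (-1.20, SE 0.18, adjusted p = 0.0106). The activin subunit Inhbb fell (-1.81), and read 6.58 to 7.89 in the other knockdowns as well. Id2, a target of BMP signals and an inhibitor of basic helix-loop-helix factors, rose (1.18). Of 25 Notch genes the ligand Jag1 (-1.38, SE 0.18, adjusted p = 0.00594) and the glycosyltransferase Mfng (-1.07) fell and 0 rose.

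Of 23 measured Hippo pathway genes 5 rose and 0 fell, 20 lay above 0, and the list median was 0.479, with 0.205 in siPsmd14 and 0.17 in siDdb1. The TEAD co-factor Vgll3 read 7.58 and 7.11 in siNonTarget and 9.34 and 9.92 in siSox2 (2.28, SE 0.23, adjusted p = 0.00197), and the matricellular YAP target Ccn1 read 8.35 and 8.04 against 9.89 and 10.69 (2.09, SE 0.28, adjusted p = 0.00612). Both were also above the control in siPsmd14. Amot, a scaffold that holds YAP out of the nucleus in inner cells of the embryo, rose (1.80, SE 0.26), as did the upstream regulator Wwc2 (1.11) and the TEAD co-factor Vgll4 (1.07, and 0.67 without siSox2 replicate 2). Of 22 retinoic acid and lipid-binding genes, the cellular retinoic acid binder Crabp1 fell from 7.55 and 7.96 to 5.84 and 5.90 (-1.89, SE 0.20, adjusted p = 0.00221), the receptor Rara fell (-0.62) and the fatty acid binder Fabp3 rose (1.84). By their brightest probe sets, none of the 15 Hedgehog genes passed limma's test. Changes ran from -0.97 to 0.68, with 3 at an unadjusted p under 0.05. Another, dimmer probe set of Hhip, the member at -0.97, did pass the same test (-1.50, adjusted p = 0.0219). Taking the FGF, BMP, Notch, Hedgehog, Hippo and retinoic acid lists as 1 set of 169 genes, 20 were called, and 9, 3, 16 and 7 of them without the arrays in turn.

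Imprinted genes, which are expressed from 1 parental copy and often act on placental growth, were called in 11 of 39 cases (28.2%), 9 higher and 2 lower. Igf2, a growth factor and the largest rise of the list, read 9.39 and 9.04 in siNonTarget and 12.67 and 13.32 in siSox2 (3.78, SE 0.26, adjusted p = 0.000332). Cdkn1c, an inhibitor of cyclin-dependent kinases, read 8.62 and 9.37 against 11.10 and 12.02 (2.57, SE 0.32, adjusted p = 0.00473), and Phlda2, which limits placental growth, read 10.97 and 11.12 against 12.65 and 12.83 (1.69, SE 0.21, adjusted p = 0.00413). Paternally and maternally expressed genes both rose, since Igf2, Peg3 (1.37), Sgce (1.72), Sfmbt2 (1.30), Slc38a4 (0.60) and Peg10 (2.59, and 1.59 without siSox2 replicate 2) are known as paternally expressed and Cdkn1c, Phlda2 and Ascl2 (3.50) as maternally expressed. The splicing protein gene Snrpn (-0.71) and the decarboxylase Ddc (-0.83) fell. In the insulin and IGF list of 24 genes, the carrier Igfbp3 (1.79, SE 0.20) and the adaptor Irs2 (1.18) rose with Igf2, and the adaptor Irs4 fell (-0.73). Of the 14 called genes of both lists 4, 3, 11 and 5 were called without the arrays in turn.

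Neural genes fell more often than they rose. Of 29 neuroectoderm and neuronal transcription factors 5 fell, Neurod1, Pax6, Otx2, Gbx2 and the Sox2-related Sox21 (-0.66), and 1 rose, Irx3. Neurod1 read 8.25 and 8.56 in siNonTarget and 6.29 and 6.08 in siSox2 (SE 0.17, adjusted p = 0.000503). Of these 29 genes 13 lay below the array median on all 8 arrays, so that much of the list was dim in these cells. Among 26 neuronal structure and synapse genes, the myelin gene Mobp (-1.44) and the neuronal tubulin Tubb3 (-0.88) fell and 0 rose. Mobp read 4.23 to 4.67 in the other knockdowns and 4.31 and 4.25 in siSox2, so all 6 knockdown arrays lay below both controls. Among 18 Sox genes, not counting Sox2 itself, Sox13 (-1.23) and Sox21 fell and the other 16 did not pass. No Hox gene of 33, the homeobox clusters that pattern the body axis, passed limma's test (1 at an unadjusted p under 0.05), with values of -0.41 to 0.40 and 24 of 33 below the median of every array.

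Axon guidance genes, many of which also act in vessels and epithelia, changed in both directions. Of 72 genes 5 rose and 3 fell. The co-receptor Nrp2 read 8.85 and 8.61 in siNonTarget and 6.39 and 6.21 in siSox2 (-2.43, SE 0.15, adjusted p = 0.000257), while its paralog Nrp1 rose (1.22, SE 0.25, adjusted p = 0.0403). The guidance cue Ntn1 read 8.05 and 8.10 against 6.39 and 6.25 (-1.76, SE 0.15, adjusted p = 0.000828), and its receptor Unc5b rose from 7.62 and 7.57 to 8.62 and 9.09 (1.25, SE 0.18, adjusted p = 0.00918). Ligand and receptor of the netrin pair and the 2 neuropilins thus changed in opposite directions. The semaphorin Sema4c (2.03), and the ephrins Efnb1 (1.04) and Efnb2 (1.0) rose, and Slit3 fell (-0.79). Over the neural and guidance lists together 16 of 127 genes were called, and 6, 6, 15 and 6 of them without the arrays in turn. In the vascular list of 34 genes, the lymphatic growth factor Vegfc fell from 7.89 and 8.42 to 6.57 and 6.39 (-1.68, SE 0.21, adjusted p = 0.00476), as did the lipase inhibitor Angptl4 (-1.16), whereas Cdh5 and the receptor Pdgfrb (1.42, and 0.84 without siSox2 replicate 2) rose. Of these 4 calls, 2, 1, 4 and 2 were made without the arrays in turn.

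**Figure D4:**
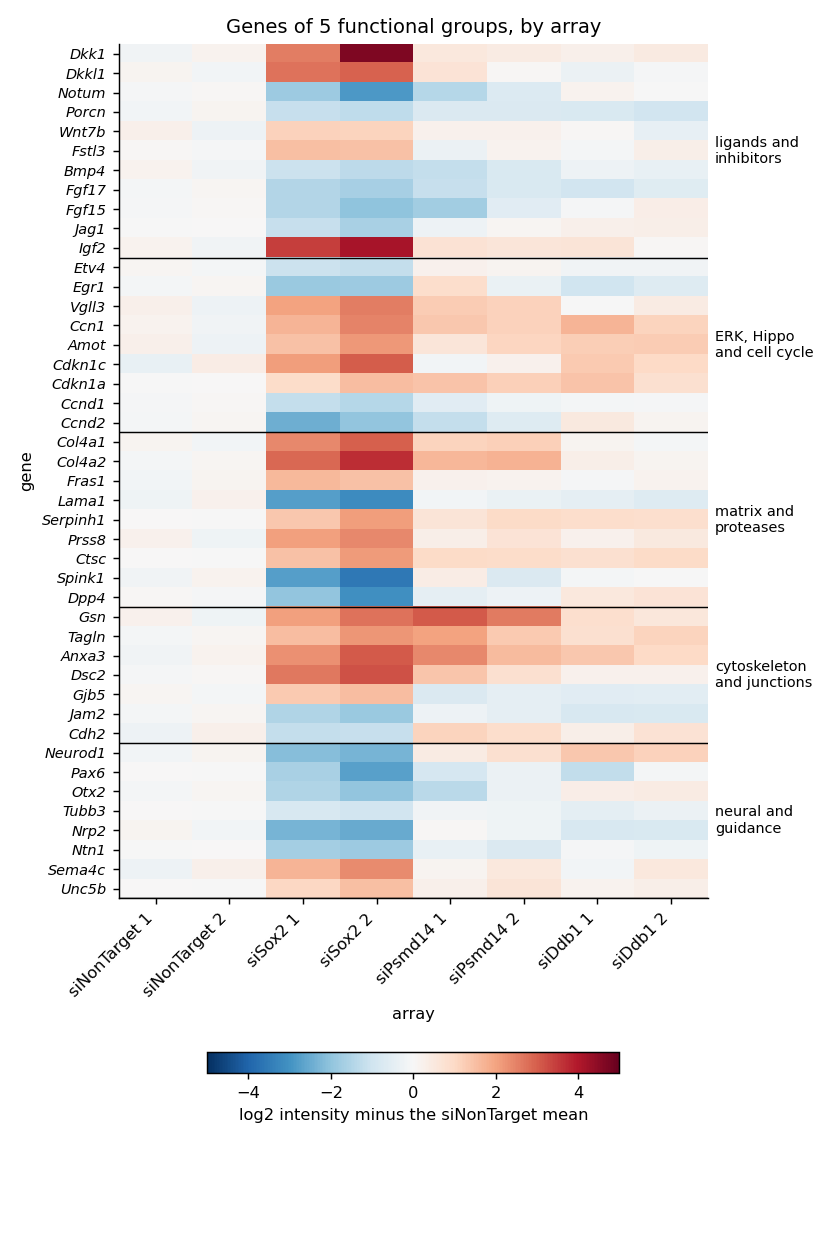
Colours give log2 intensity minus the siNonTarget mean for a selection of the genes named in the text (rows, in 5 functional groups) on the 8 arrays (columns), from -5 (blue) to 5 (red). Among the genes plotted, Dkk1 and Igf2 are the deepest rises and Spink1 and Lama1 the deepest falls in the siSox2 columns, and rises such as Gsn, Anxa3 and Cdkn1a also appear in the siPsmd14 columns.

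Regulators of the cell cycle's first phase were called, and the machinery of replication and division was not. Of 25 cyclin and CDK inhibitor genes 4 rose and 2 fell. Of the D-type cyclins, which carry mitogen signals into the cycle, 2 fell, Ccnd2 from 7.76 and 7.92 to 5.40 and 5.86 (-2.21, SE 0.22, adjusted p = 0.00189) and Ccnd1 from 10.82 and 10.95 to 9.69 and 9.46 (-1.31, SE 0.15, adjusted p = 0.0035). The remaining one, Ccnd3, read 10.58 and 10.51 against 10.88 and 11.11 and did not pass (0.45, adjusted p = 0.286). The inhibitors Cdkn1c, Cdkn1a (1.24, SE 0.24) and Cdkn2b (0.75) rose, together with the atypical cyclin Ccng2 (0.83). In the other knockdowns Cdkn1a read 9.25 to 9.87 and Cdkn2b 7.14 to 8.01, and neither passed the direct test against them. No gene passed limma's test among 30 DNA replication genes (-0.49 to 0.31, with 2 at an unadjusted p under 0.05) or 25 mitosis genes (-0.31 to 0.59, with 1), and every one of them was above the array median on at least 1 array. Of 24 p53 targets 1, Cdkn1a, rose, and the list's median was 0.196 in siSox2 against 0.572 in siPsmd14 and 0.588 in siDdb1. Among 26 BCL2 family and caspase genes the executioner caspase Casp6 (0.88) and the killer protein Bik (0.95) rose. Of the 8 called genes of these lists 3, 2, 4 and 4 were called without the arrays in turn.

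Membrane transport and metabolism changed at close to the background rate, with 31 of 539 genes called (5.75%). Among 309 solute carriers 9 rose and 5 fell. The iodide carrier Slc5a5 read 6.32 and 5.79 in siNonTarget and 8.42 and 8.81 in siSox2 (2.56, SE 0.24, adjusted p = 0.00124), and the mitochondrial carrier Slc25a24 rose (2.48, SE 0.32). The zinc exporters Slc30a4 (0.99) and Slc30a2 (0.99), the iron exporter Slc40a1 (1.24) and the creatine carrier Slc6a8 (1.16) rose, whereas the zinc importer Slc39a14 fell (-1.06). Amino acid carriers that fell were Slc7a3, which read 11.19 and 11.30 against 9.37 and 8.63 (-2.25, SE 0.27, adjusted p = 0.00418), and the branched-chain carrier Slc6a15 (-1.96). Lipid handling was the metabolic list with the highest share, 6 of 26 genes (23.1%). Apob, the core protein of lipoproteins, read 3.68 and 4.10 against 5.58 and 5.78 (1.79, SE 0.17, adjusted p = 0.00139), the lipase Lipg read 3.90 and 3.98 against 5.14 and 5.66 (1.46, SE 0.17, adjusted p = 0.00372), and Fabp3, the lipid droplet coat Plin2 (1.62) and the HDL receptor Scarb1 (0.67) rose. The lysosomal Scarb2 fell (-0.88). In glycolysis Hk1 (0.98) and Pfkm (0.87) rose and the brake on pyruvate oxidation Pdk1 fell (-1.17). The glutathione transferases Gsta3 (-0.81) and Gsta4 (-1.05, and -0.69 without siSox2 replicate 2) fell, and Gpx8, a peroxidase of the endoplasmic reticulum, rose (1.78). Of the 31 called genes 6, 2, 27 and 5 were called without the arrays in turn, and only Apob and Slc5a5 without each.

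Immune, stress and chromatin lists held few calls, in both directions. Of 25 interferon and MHC genes 3 rose, the MHC light chain B2m (1.40, SE 0.20), the GTPase Gbp2 (1.98, and 1.28 without siSox2 replicate 2) and the chemokine Cxcl10 (1.56, and 0.997 without the same array), and the interferon-induced membrane proteins Ifitm3 (-0.95) and Ifitm1 (-0.95, and -0.60 without the same array) fell. Among 135 chemokine and interleukin genes the cytokines Tnfsf11 (-2.03, SE 0.25, adjusted p = 0.00473) and Il17b (-1.32) fell and the receptor Il17rc (0.82) rose with Cxcl10. The small heat shock protein Cryab (2.46), Hspa1b (1.01) and the co-chaperone Bag3 (1.06) rose among 25 heat shock and unfolded protein genes, and none of the 3 differed from the other knockdowns by the direct test. Germline genes were mixed, with the helicase Ddx4 higher (0.92) and the stem cell factor receptor Kit (-1.51) and Tdrd12 (-1.23) lower. The methyl-DNA reader Mbd2 (1.09) and the demethylation factor Gadd45b (1.01) rose where Gadd45a fell (-0.85). The 3 chromatin regulators called by their brightest probe set all fell, the BAF subunit Smarcd3 (-1.02), Phc1 and the demethylase Kdm5b (-0.68). With all probe sets of a gene averaged, 2 of the 33 chromatin regulators rose and 3 fell. No gene passed limma's test among 45 ribosomal proteins (-0.40 to 0.17) and 42 proteasome subunits (-0.57 to 0.31), where 1 and 2 had an unadjusted p under 0.05, and 1 of 135 ion channel genes, Cacna1a, fell (-0.89). Of the 20 immune, stress and chromatin genes called, 3, 1, 16 and 1 were called without the arrays in turn, and 0 without each.

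Setting siSox2 against the mean of the siPsmd14 and siDdb1 arrays gives a difference of means that leaves out the siNonTarget arrays, which enter only the estimate of the spread. It shares the siSox2 arrays with the comparison above. Here 1074 of 18193 genes passed (5.9%), 595 higher (3.27%) and 479 lower (2.63%) in siSox2. The count was 704 without siSox2 replicate 1, 193 without siSox2 replicate 2 and 685 without siDdb1 replicate 1. It was 721 with the siNonTarget arrays left out of the fit. In the actin list Gsn, Cald1, Tagln, Tpm1, Acta1 and Zyx did not pass, whereas Lcp1 did (4.38, SE 0.18, adjusted p = 3.54e-05). Irx3 (3.50), Pparg (3.11), Chdh (3.33), Ldoc1 (3.02) and Mbnl3 (2.87) were higher than in the other knockdowns by amounts close to those over siNonTarget (3.84, 2.94, 3.24, 2.93 and 3.10). Cholesterol and fatty acid synthesis genes were called in this comparison. None of the 28 passed limma's test against siNonTarget (list median 0.302, 24 above 0, 8 at an unadjusted p under 0.05), and 10 were higher than in the other knockdowns and 0 lower. They were the transcription factor Srebf2 (0.57), the pathway enzymes Hmgcs1 (0.47), Mvk (0.64), Mvd (0.66), Nsdhl (0.55), Dhcr7 (0.59) and Hsd17b7 (0.66) and the desaturases Fads1 (0.82), Scd1 (1.08) and Scd2 (0.83). The number called fell to 2 without siSox2 replicate 1, 0 without siSox2 replicate 2, 4 without siPsmd14 replicate 1, 2 without siDdb1 replicate 1 and 5 without siDdb1 replicate 2, while the list's median difference stayed between 0.476 and 0.567. By array, the median of the 28 genes was 0.269 and 0.273 above the siNonTarget mean in siSox2 and between -0.352 and -0.0862 in the 4 other knockdown arrays, with the siNonTarget arrays at 0.104 and -0.104. Both siSox2 arrays were thus above the other 6 in this list, and whether the 2 comparisons differ was not tested.

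**Figure D5:**
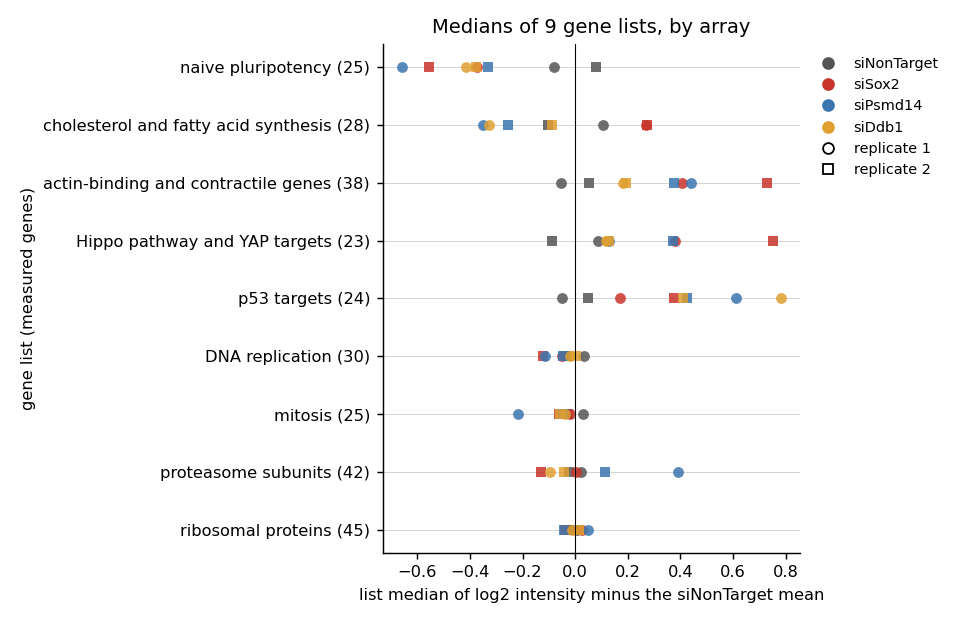
For 9 gene lists (rows), points give the median over the list's genes of log2 intensity minus the siNonTarget mean, 1 point per array, coloured by group and shaped by replicate. Actin-binding and Hippo genes are highest in siSox2 replicate 2 (0.729 and 0.75), cholesterol genes are higher in both siSox2 arrays than in the other 6, p53 targets are highest in siDdb1 and siPsmd14, and ribosomal genes lie near 0.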

How the data were processed

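Gene expression was measured on 8 Affymetrix arrays, 2 for each of siNonTarget, siSox2, siPsmd14 and siDdb1, as their titles give. RNA was taken 48 h after transfection, and 5 ng per sample went through Ovation V2 amplification before hybridisation, per the labels' protocols. The deposited values are linear intensity values that the authors made with RMA, as the submitters' processing notes list it, with version and genome build not given in the sources used here. RMA usually equalises array distributions, so a change is measured against the bulk of the array. No scanner files were used here. Array number limits the precision.

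From these, log2 values of 45037 probe sets (64 control probe sets left out) were fitted over all 8 arrays in 1 limma 3.58.1 model (R 4.3.3, lmFit and eBayes without trend), with 5.02 prior and 9.02 total degrees of freedom. Benjamini-Hochberg adjustment ran over all 45037, with a threshold of 0.05, and every adjusted p comes from this limma model. GEO's platform annotation gave 34945 probe sets 1 symbol, 932 several and 9160 none. Of these, 34741 matched the RefSeq gene table by Entrez identifier, and 0 were renamed. A gene took its probe set with the highest mean, which left 18193 genes. Just inside the threshold lay Adam10 and Chmp4b (both adjusted p = 0.0498), and just outside Adap1 (0.0501) and Rnf19b (0.0503).

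The comparison and the 68 gene lists were chosen with earlier results of these data known, so no list is independent support. Named genes were Sox2, Pou5f1 and Nanog, the 12 largest rises and falls past the threshold outside the trophoblast lists with arrays apart, and list members past the threshold, with values by array for at most 4 members of a list. On simulated data of 45037 probe sets, the siSox2 comparison recovered 85% of probe sets planted at 1 log2 unit and 100% at 2 log2 units, with 17 false calls. The simulated noise was drawn independently for each value. It therefore lacked differences between replicates shared by many genes, such as those of siSox2 replicate 2, and does not describe recovery under them. Alternatives covered filters on dim probe sets, centring, quantile normalization, an added 16 before log2, trend and robust fitting, array weights, the 4 arrays alone, a replicate block, 1 probe set per gene, stricter thresholds and each array left out.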

Additional observations from a re-analysis of the deposited data

How the results depend on the processing

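Against the 778 genes called for siSox2 over siNonTarget, 242 passed at an adjusted p of 0.01, 469 with a 2-fold minimum and 420 with 16 added before log2. For probe sets, 375, 762 and 684 of 1320 passed in the same settings. Against the other knockdowns, 341 of 1074 genes passed at 0.01 and 454 with the 2-fold minimum. Leaving out 1 array gave 104 to 837 genes and 153 to 1440 probe sets over siNonTarget, and 193 to 999 genes against the other knockdowns. The other settings gave counts within 1.5 times of these. All 778 genes kept their direction wherever a setting gave a value, an outcome that their selection on the same arrays made likely. Nsdhl, which was not called over siNonTarget (0.13), ranged from -0.0431 without siNonTarget replicate 2 to 0.302 without siNonTarget replicate 1. Samples with the same replicate number did not deviate together throughout (correlations of -0.217 to 0.242 between groups, the highest for siNonTarget with siSox2). Whether a replicate number marks a shared culture or day was not tested. With the replicate block, 738 genes, 1256 probe sets and, against the other knockdowns, 1057 genes passed, and 658 of the 778 genes were among the first. With 2 arrays a group the spread is estimated largely from shared information, and no detection calls were used here, so dim probe sets carry no check of signal over background.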

Other observations

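Genes outside the lists, chosen after their values were seen, are given here as values. Several transcription factors and co-factors rose. Cebpb, a basic leucine zipper factor, read 7.77 and 7.93 in siNonTarget and 9.97 and 10.34 in siSox2 (2.30, SE 0.15, adjusted p = 0.000332), and its relative Cebpa rose from 5.16 and 4.91 to 6.30 and 6.94 (1.59, SE 0.21, adjusted p = 0.00678). The AP-1 subunit Jun (2.22), the AP-1-like Batf3 (1.93) and the epithelial ETS factor Elf3 (1.68) rose, as did 3 members of the CITED family of CBP and p300 co-factors, Cited1 (2.74), Cited4 (1.26) and Cited2 (1.09). Enzymes that handle hormones and lipid signals rose, namely Hpgd, which inactivates prostaglandins (2.55, SE 0.24), Cyp7b1, an oxysterol hydroxylase (1.33), and Hsd11b2, which inactivates glucocorticoids (1.13). The peptide hormone secretin, Sct (2.84), and the dual-specificity phosphatases Dusp9 (2.14, SE 0.16) and Dusp8 (1.08) were higher too. So were the carbonic anhydrases Car4 (2.35) and Car2 (1.20).

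Among adhesion genes the parvin Parva (2.09), the kinase Ilk (1.13) and the LIM proteins Csrp1 (2.02) and Pdlim2 (1.96) rose, and the filamin-binding Fblim1 fell from 10.22 and 10.37 to 9.04 and 8.91 (-1.32, SE 0.13, adjusted p = 0.00188). Some genes known from neurons fell outside the neural lists, and neuronal genes there that rose or did not change were not counted. Dpysl3, which acts in axon growth, read 8.08 and 8.56 against 6.25 and 6.39 (-2.0, SE 0.19, adjusted p = 0.00125), and the reelin adaptor Dab1 read 6.98 and 6.73 against 5.10 and 4.65 (-1.98, SE 0.22, adjusted p = 0.00306). The clathrin uncoating factor Dnajc6 (-2.01), the endophilin Sh3gl2 (-1.28), the acetylcholine receptor subunits Chrna7 (-1.26) and Chrna9 (-0.99) and the neurofilament Nefh (-0.91) fell. Of genes tied to embryonic stem cells, the constitutively active Ras relative Eras (-1.60) and the basic helix-loop-helix factor Tcf15 (-1.16) fell. Of the 30 genes named in these paragraphs, 19, 11, 27 and 18 were called without siNonTarget replicate 1, siNonTarget replicate 2, siSox2 replicate 1 and siSox2 replicate 2 in turn.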
